A study of Mus musculus with 24 samples.

Results

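The 32 genes described here are imprinted genes of the mouse, which are transcribed mainly from 1 parental allele. They were given as a list of gene symbols, and each symbol matched exactly 1 of the 55471 genes in the annotation of the deposited counts. By textbook assignment 11 of them are expressed from the maternal allele (*H19*, *Igf2r*, *Grb10*, *Cdkn1c*, *Phlda2*, *Meg3*, *Ube3a*, *Dcn*, *Slc22a18*, *Ascl2* and *Tssc4*) and 20 from the paternal allele (*Igf2*, *Peg3*, *Peg10*, *Mest*, *Kcnq1ot1*, *Plagl1*, *Zdbf2*, *Dlk1*, *Impact*, *Nnat*, *Usp29*, *Sgce*, *Airn*, *Nap1l5*, *Mcts2*, *Inpp5f*, *Sfmbt2*, *Gab1*, *Jade1* and *Smoc1*). The remaining gene, *Gnas*, gives rise to transcripts from either allele. None of the counts separates the alleles, so the values below are sums over both.

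Imprints are mostly DNA methylation marks set in the germ line of 1 parent that survive the reprogramming after fertilization, held by the KRAB zinc finger protein ZFP57 and its partner TRIM28. A smaller set of genes, to which *Sfmbt2*, *Gab1*, *Jade1* and *Smoc1* belong, is silenced on the maternal allele by H3K27me3 inherited from the oocyte. An imprint is present in the oocyte or sperm before it has any effect on transcripts of the embryo: RNA of these genes in the oocyte comes from the maternal genome whichever allele is used later. For *Grb10*, *Ube3a* and *Inpp5f* the allele in use also depends on the tissue or the promoter.

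SLIM-seq, a low-input sequencing of RNA captured with an antibody against the m6A base modification (IP), was done on MII oocytes, late 1-cell (L1C) embryos and late 2-cell (L2C) embryos of wild-type B6D2F1 mice, crossed between this hybrid strain for the embryos. Each stage has 3 IP libraries and 3 input libraries of RNA that did not pass the antibody, 18 in all. In a further experiment zygotes of the same strain received Cas13d mRNA with 3 crRNAs against *Ythdc1*, the nuclear m6A reader (KD), or Cas13d mRNA without crRNA (Ctrl), and 3 libraries per group were made from L2C embryos. Embryos were pooled for each library, nothing in the labels says that the replicates came from separate females, and the Ctrl embryos received no unrelated crRNA.

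The crRNAs are shown because every KD value below rests on them. Each of the 3 is the exact reverse complement of a stretch in 5 of the 9 annotated *Ythdc1* transcripts and matches none of them in the sense direction.
crRNA 1: cctcattctcagtgttgttgccc
crRNA 2: aattcatcatcctgttctggtac
crRNA 3: ctctcagaaccatctggtgtagg

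Promoter sequences from RefSeq (GRCm38.p6), each covering 250 bases before and 50 after a transcription start, were at hand for 25 of the 32 genes, with 41 starts. CpG dinucleotides are where methylation imprints are written. A promoter of these genes held a median of 17 of them, against 7 over the 32851 promoters of the table. The windows lie at transcription starts, also of genes silenced through H3K27me3, and were not chosen as sites of an imprint. Methylation was not measured. TGCCGC, the core of the motif that ZFP57 reads when it is methylated, was searched on both strands. It was found in 10 of the 41 promoters (24.4%), belonging to 9 genes, and in 11.6% of all promoters in the table. The motif itself holds a CpG, and the part of CpG content in this share was not tested. Windows of a gene can overlap, as do those of *Mest* that begin at chr6:30737800 and chr6:30737803. The promoters of 4 genes are printed with each CpG in capitals: *Mcts2* and *Kcnq1ot1*, listed at 0 before L2C, and *Igf2r* and *Airn*, the sense and antisense genes of 1 imprinted domain. They lie at chr2:152686898-152687197 (plus strand), chr7:143296498-143296797 (minus strand), chr17:12769657-12769956 (minus strand) and chr17:12741061-12741360 (plus strand).
Mcts2: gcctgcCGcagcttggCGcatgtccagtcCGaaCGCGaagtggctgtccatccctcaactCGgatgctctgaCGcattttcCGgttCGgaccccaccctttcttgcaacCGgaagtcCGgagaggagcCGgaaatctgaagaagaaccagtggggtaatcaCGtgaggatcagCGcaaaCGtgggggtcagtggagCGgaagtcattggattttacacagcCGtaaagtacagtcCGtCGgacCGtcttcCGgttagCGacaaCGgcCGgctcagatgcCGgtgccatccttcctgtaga
Kcnq1ot1: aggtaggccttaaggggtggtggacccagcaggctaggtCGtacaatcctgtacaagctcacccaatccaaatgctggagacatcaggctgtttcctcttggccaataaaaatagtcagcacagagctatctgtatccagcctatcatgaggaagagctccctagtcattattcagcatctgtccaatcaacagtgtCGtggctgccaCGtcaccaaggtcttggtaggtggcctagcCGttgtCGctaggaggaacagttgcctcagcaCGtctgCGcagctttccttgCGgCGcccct
Igf2r: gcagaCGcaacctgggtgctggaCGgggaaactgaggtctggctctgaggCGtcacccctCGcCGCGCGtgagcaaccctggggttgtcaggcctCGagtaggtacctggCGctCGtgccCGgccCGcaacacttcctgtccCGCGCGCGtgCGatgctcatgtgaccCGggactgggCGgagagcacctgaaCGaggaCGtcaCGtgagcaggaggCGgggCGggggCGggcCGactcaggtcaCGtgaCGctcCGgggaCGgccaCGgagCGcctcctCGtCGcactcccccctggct
Airn: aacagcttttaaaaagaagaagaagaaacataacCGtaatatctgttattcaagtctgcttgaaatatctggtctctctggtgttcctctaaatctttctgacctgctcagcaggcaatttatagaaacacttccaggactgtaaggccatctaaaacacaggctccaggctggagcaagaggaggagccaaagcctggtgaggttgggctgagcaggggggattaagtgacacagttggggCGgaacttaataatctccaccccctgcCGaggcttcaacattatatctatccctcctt
The windows hold 25, 9, 34 and 3 CpGs in this order, and TGCCGC occurs only in that of *Mcts2*, 1 time.

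Levels in SLIM-seq are given as CPM, counts scaled to the TMM-adjusted total of their library, from estimated counts over the whole span of a gene with its introns. The TMM factors for these levels were set over all 18 libraries, while log2 changes between stages come from a fit of the 9 inputs with factors of its own. A fitted change is therefore above the change read from the printed CPM, by 0.09 on the log2 scale from MII to L1C, 0.24 from L1C to L2C and 0.33 from MII to L2C. Totals ran from 11107175 to 39739640 counts per SLIM-seq library, from 8696476 to 14500548 in the 5 complete libraries of the KD experiment and from 3276715 to 5463868 in the 6 columns of its merged table. The summed level of 8 oocyte transcripts was 9230 to 10900 CPM in MII, 5730 to 6640 in L1C and 711 to 740 in L2C inputs, and that of 8 transcripts of the 2-cell stage was 34.9 to 43.2, 107 to 147 and 369 to 506 CPM. Of 12 markers of cumulus, stromal, endothelial and blood cells, 5 were tested in the inputs. The sum of the 12 was 142 to 170 CPM in MII, 61.2 to 81.6 in L1C and 41.6 to 55.9 in L2C inputs. In MII it was made up almost wholly by *Pecam1*, at 135 to 161 CPM. *Ptx3* was at 0 in every input, as was *Col1a2* in MII and *Col3a1* in L1C and L2C. The other markers, *Has2*, *Tnfaip6* and *Star* among them, had counts at each stage. The part of these cells in the results was not tested. Because whole embryos were pooled, a lower CPM can mean fewer copies of an RNA or more of other RNAs, and these cannot be told apart.

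Of the 32 genes, 25 were tested in the inputs, and 7 were too low or listed at 0 (*H19*, *Slc22a18*, *Igf2*, *Peg10*, *Dlk1*, *Nnat* and *Nap1l5*). From MII to L1C, 5 rose and 11 fell of 23 tested, where over all 19903 genes tested 31.9% rose and 24.3% fell (56.2% changed). From L1C to L2C, 11 rose and 6 fell of 25, against 44.1% and 38.8% of all genes (82.9% changed). Over both steps 11 rose and 8 fell of 25, against 47.5% and 37.1% (84.6% changed). The 11 that rose to L2C include, in both comparisons, *Mcts2* and *Kcnq1ot1*, whose zeros before L2C need care. All these counts are of calls of the quasi-likelihood test of edgeR at a BH-adjusted p under 0.05 over all genes. Since most genes changed between stages, a call alone sets no imprinted gene apart. Without MII input replicate 2 the number of members that fell from MII to L1C was 7 in place of 11. The scaling moved some of these calls. In a fit over all 18 libraries, chosen after seeing the data, the median of all genes was 0.13, 0.18 and -0.05 from MII to L1C, MII to L2C and L1C to L2C, where the inputs alone gave 0.16, 0.40 and 0.17. From L1C to L2C 9 members then rose and 11 fell: *Cdkn1c* and *Ascl2* lost their rise (adjusted p = 0.16 and 0.2), *Meg3*, *Dcn*, *Inpp5f* and *Smoc1* were called lower (0.025, 0.032, 0.016 and 0.023), and *Slc22a18* was tested in that fit alone. Over both steps this fit called 9 members higher and 10 lower, leaving out *Ascl2* and *Sfmbt2* (0.095 and 0.21) and adding *Ube3a* and *Zdbf2* to the lower ones (0.044 and 0.026). Of the genes not tested, *H19* held at most 4 counts in an input library, *Peg10*, a retrotransposon-derived gene of the placenta, at most 3, and *Dlk1*, a Notch ligand-like gene, at most 7.

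**Figure D1:**
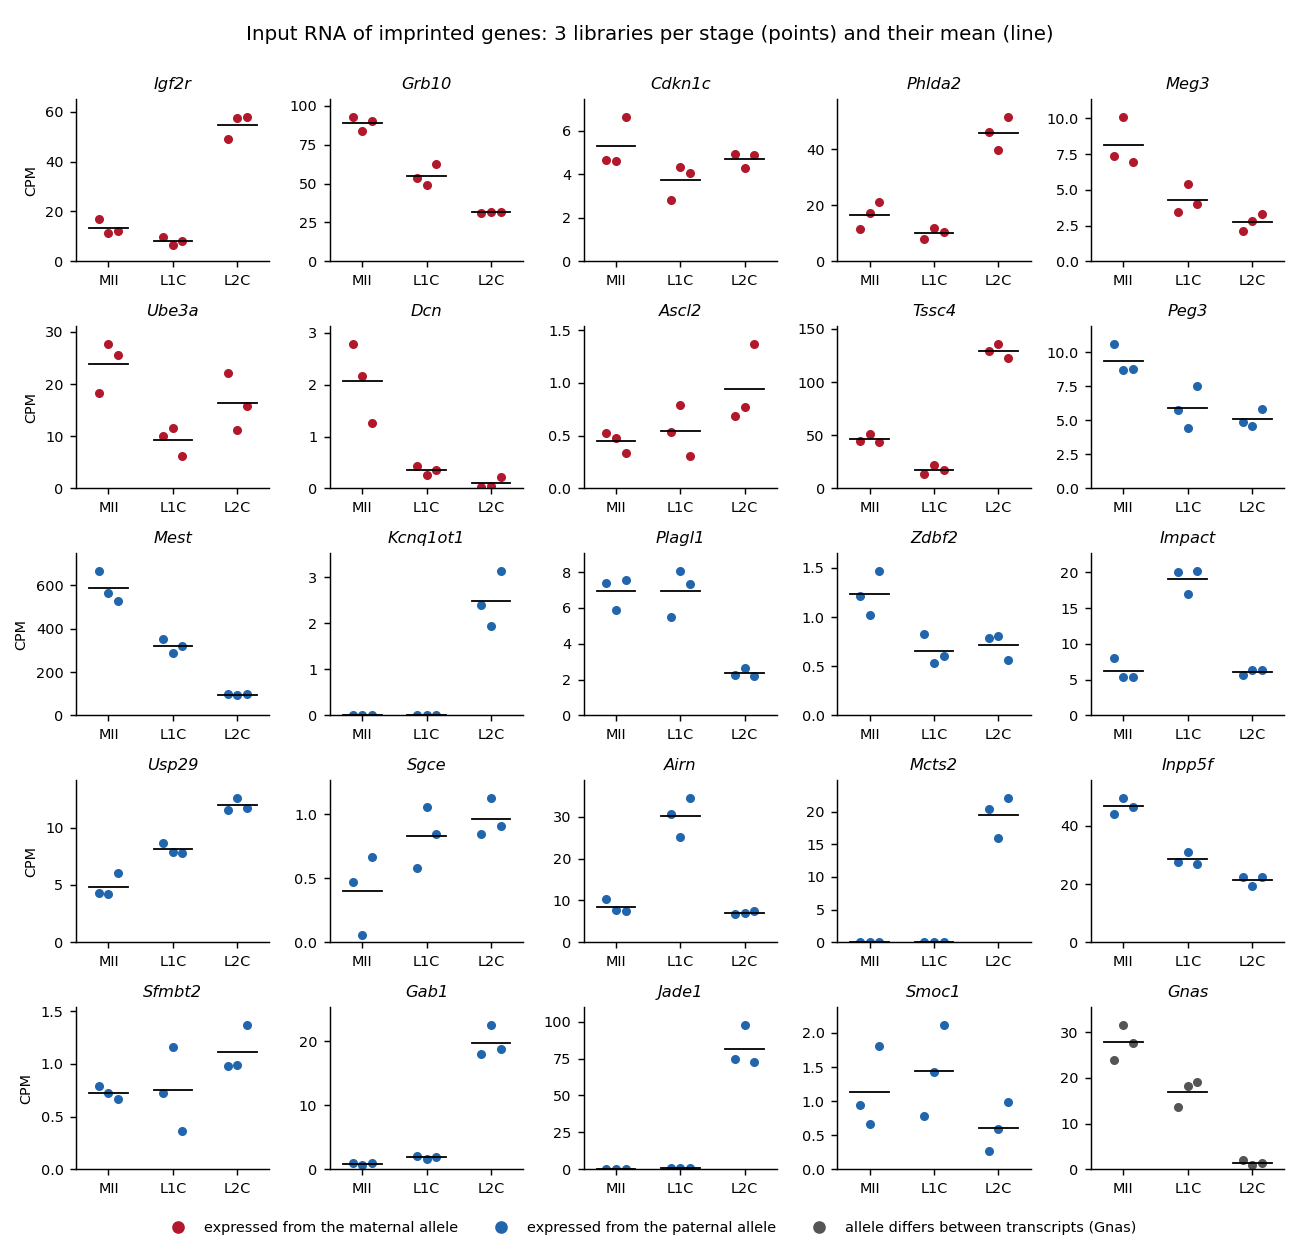
Input level of the 25 tested genes in MII, L1C and L2C (x axis) as CPM (y axis, linear, a scale of its own for each gene). Points are the 3 libraries of a stage and lines their mean, with colour for the expressed allele. *Jade1*, *Gab1*, *Mcts2* and *Kcnq1ot1* stand high at L2C alone, *Impact* and *Airn* peak at L1C, and *Mest*, *Grb10* and *Gnas* fall at each step.

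Among genes counted at all stages, the steepest rises from L1C to L2C belonged to *Jade1* and *Gab1*, paternally expressed genes under inherited H3K27me3. *Jade1* encodes a subunit of the HBO1 histone acetyltransferase complex. It had 2, 6 and 0 counts in the MII inputs, 16, 17 and 17 in L1C and 2282, 2170 and 2974 in L2C. The L2C libraries lay far above all others, and the rise from L1C was 6.75 ± 0.29 (SE) on the log2 scale (edgeR adjusted p = 4.1e-11). *Gab1*, a docking protein of receptor tyrosine kinases, was at 0.949, 0.659 and 1.01 CPM in MII, 2.13, 1.69 and 2 in L1C and 18, 22.6 and 18.8 in L2C. No stage overlapped another, with log2 steps of 1.24 ± 0.26 and 3.59 ± 0.21 (edgeR adjusted p = 0.0011 and 9.4e-10). The other genes of this kind had smaller changes, none of them called in every fit. *Sfmbt2*, a Polycomb group gene, changed by 0.80 ± 0.41 from L1C to L2C (adjusted p = 0.082) and by 0.94 ± 0.42 from MII to L2C, with an adjusted p of 0.048 that missed 0.05 without any 1 of the 6 MII and L2C inputs (0.065 to 0.18). Without L1C input replicate 2 its change from L1C was called (adjusted p = 0.025). *Smoc1*, a secreted matrix protein, changed by -0.95 ± 0.53 from L1C to L2C (adjusted p = 0.11), and reached an adjusted p of 0.044 without L1C input replicate 1 and 0.038 without L2C input replicate 3.

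*Mcts2* and *Kcnq1ot1* were listed at 0 in all MII and L1C libraries and counted in every L2C library. *Mcts2*, an intronless retrogene of the translation factor gene *Mcts1* inside an intron of *H13*, had 623, 355 and 900 counts in the L2C inputs. *Kcnq1ot1*, the antisense RNA that silences its domain in cis, had 73, 43 and 128. The zeros need care, since both genes lie inside the span of another gene on which kallisto could place the same reads. Were the *H13* counts spread evenly over its span, 157 to 214 of them would fall on *Mcts2* in an MII or L1C input, and 30.9 to 49.4 in L2C. Even spread of *Kcnq1* would put 122 to 563 counts on *Kcnq1ot1* in MII or L1C and 74.6 to 97 in L2C. The *Mcts2* counts of the L2C inputs exceed that share in every library, those of *Kcnq1ot1* do so only in the third input, and no fold is given. In the L2C IPs *Kcnq1ot1* exceeded it in all 3 libraries, with 289, 68 and 260 counts against 127, 22.1 and 57.5. At the same step the hosts fell, *H13* by 2.72 ± 0.17 and *Kcnq1* by 1.10 ± 0.18 on the log2 scale (edgeR adjusted p = 1.6e-09 and 4.5e-05). None of the 882 runs of 31 bases in *Mcts2* occurs in an annotated *Mcts1* transcript. *Nnat*, inside *Blcap*, and *Nap1l5*, inside *Herc3*, were at 0 in all inputs, where even spread of the host would give 115 to 957 and 1.26 to 15.2 counts, so their absence was not shown.

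In the domain of *Igf2r*, the receptor that carries IGF2 to lysosomes, the gene and its antisense silencer *Airn* peaked at different stages. *Igf2r* was at 16.8, 11.3 and 12.3 CPM in MII, 9.59, 6.49 and 8 in L1C and 48.9, 57.5 and 57.9 in L2C. *Airn* was at 10.3, 7.79 and 7.51 CPM in MII, 30.6, 25.1 and 34.5 in L1C and 6.7, 6.95 and 7.5 in L2C. Thus L1C was the lowest stage of *Igf2r* and the highest of *Airn*, without overlap. *Igf2r* fell by 0.66 ± 0.19 and then rose by 3.01 ± 0.19 on the log2 scale (edgeR adjusted p = 0.0086 and 2.2e-09). The fall missed 0.05 without MII input replicate 1, at an adjusted p of 0.051. *Airn* rose by 1.90 ± 0.18 and then fell by 1.85 ± 0.18 (edgeR adjusted p = 1.1e-06 and 2.3e-07). The spans of both genes overlap on opposite strands, *Airn* also runs across *Mas1*, and whether kallisto used the strand is not given in the sources used here, so reads of the shared part cannot be assigned with certainty.

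The *Kcnq1* domain on chromosome 7 holds several maternally expressed genes on either side of *Kcnq1ot1*. *Phlda2*, which limits placental growth, was at 11.5, 17.1 and 21.3 CPM in MII, 8.14, 11.8 and 10.5 in L1C and 46.1, 39.8 and 51.5 in L2C. *Tssc4*, which encodes an assembly factor of the U5 snRNP, was at 44.3, 51.1 and 43.3, then 13.8, 21.7 and 17.2, then 129, 136 and 123 CPM. Both reached their highest level at L2C in every library, up from L1C by 2.41 ± 0.22 and 3.12 ± 0.17 on the log2 scale (edgeR adjusted p = 1.4e-07 and 3.4e-10). *Tssc4* had fallen before, by 1.31 ± 0.16 from MII to L1C (edgeR adjusted p = 1.1e-05). The dip of *Phlda2* by 0.63 ± 0.22 had overlapping groups and an adjusted p of 0.027, which rose to 0.067, 0.15 and 0.1 without MII input replicate 2 or 3 or L1C input replicate 1. *Cdkn1c*, the CDK inhibitor p57, stayed at 2.81 to 6.64 CPM in all 9 inputs, and its change of 0.58 ± 0.24 from L1C to L2C (adjusted p = 0.036) did not pass without L1C input replicate 1 (0.16), L2C input replicate 1 (0.092) or L2C input replicate 3 (0.094). *Ascl2*, a transcription factor of the trophoblast, held 5 to 15 counts in MII and L1C inputs and 21, 17 and 56 in L2C. Its change from L1C to L2C (1.04 ± 0.45, adjusted p = 0.047) missed 0.05 without L1C input replicate 1 (0.11), L1C input replicate 3 (0.17), L2C input replicate 2 (0.053) or L2C input replicate 3 (0.27), and also with DESeq2 (0.085). Its change from MII to L2C (1.40 ± 0.47, adjusted p = 0.013) missed it without MII input replicate 3 (0.053) or L2C input replicate 3 (0.1). *Slc22a18*, an organic cation transporter, held 1 to 19 counts.

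Several genes were lower at L2C than in MII. *Mest*, an alpha/beta hydrolase, was the highest of the 32 by CPM in MII, at 667, 566 and 527, and was at 354, 288 and 321 in L1C and 96.3, 92.6 and 97.5 in L2C. *Grb10*, an adaptor that restrains insulin and IGF receptors, was at 92.8, 83.5 and 90.1, then 53.7, 48.8 and 62.8, then 31, 31.7 and 31.7 CPM. The stages of both genes were fully separate. From MII to L2C *Mest* fell by 2.29 ± 0.13 and *Grb10* by 1.17 ± 0.13 on the log2 scale (edgeR adjusted p = 3.3e-10 and 8.1e-07). *Gnas*, which encodes the stimulatory G protein alpha subunit, fell by 3.89 ± 0.26 (edgeR adjusted p = 2.5e-09), most of it after L1C (23.9 to 31.6, 13.7 to 19 and 0.947 to 2.06 CPM by stage). Its smaller step from MII to L1C (-0.63 ± 0.22, adjusted p = 0.024) missed 0.05 without MII input replicate 2 (0.1), MII input replicate 3 (0.056) or L1C input replicate 1 (0.09). *Inpp5f*, a phosphoinositide phosphatase, fell from 44 to 49.7 CPM in MII to 19.4 to 22.5 in L2C (-0.80 ± 0.13 in the fit of the inputs, edgeR adjusted p = 6.2e-05), and its step from L1C to L2C was not called (-0.18 ± 0.13, adjusted p = 0.23). *Plagl1*, a zinc finger transcription factor, was not called from MII to L1C (0.09, adjusted p = 0.76) and fell in the second step (5.47 to 8.07 CPM in L1C, 2.18 to 2.66 in L2C, -1.32 ± 0.23, edgeR adjusted p = 7.9e-05).

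*Meg3*, a long noncoding RNA of the *Dlk1* domain, was at 7.38, 10.1 and 6.97 CPM in MII, 3.44, 5.43 and 4 in L1C and 2.09, 2.8 and 3.31 in L2C. No MII library overlapped a later one, and the fall from MII to L2C was 1.24 ± 0.26 on the log2 scale (edgeR adjusted p = 0.00038). Its first step of -0.84 ± 0.25 (adjusted p = 0.012) reached 0.066 without MII input replicate 2. *Dcn*, the matrix proteoglycan decorin, held 53, 36 and 19 counts in MII, 9, 5 and 6 in L1C and 1, 1 and 9 in L2C, a change of -3.83 ± 0.58 over both steps (edgeR adjusted p = 2.2e-05). Decorin is a stromal gene. In the MII inputs, where *Dcn* was at 1.27 to 2.79 CPM, the stromal collagen genes *Col1a2* and *Col3a1* were at 0 to 0.158 CPM. The further collagen marker *Col1a1* also had counts there. Of the 5 somatic markers tested, 3 rose and 2 fell from MII to L1C, the step at which *Dcn* fell by 2.45 ± 0.53 on the log2 scale (edgeR adjusted p = 0.0014). From L1C to L2C none rose and 2 fell, and over both steps 1 rose and 3 fell. Most of the lower sum lay in *Pecam1* (-1.19 ± 0.16 from MII to L1C, edgeR adjusted p = 3e-05), and the part of such cells in the change of *Dcn* was not tested. *Ube3a*, a ubiquitin ligase, dipped at L1C, with 18.2, 27.7 and 25.5, then 9.98, 11.5 and 6.3, then 22.1, 11.1 and 15.7 CPM (-1.28 ± 0.27 and 1.06 ± 0.27, edgeR adjusted p = 0.0011 and 0.002). Over these stages its antisense neighbour *Snhg14*, whose span overlaps it, rose by 3.67 ± 0.34 (edgeR adjusted p = 1.2e-07).

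*Usp29* and *Peg3*, paternally expressed genes with starts next to each other on chromosome 7, went different ways. *Usp29*, a deubiquitinase gene, was at 4.27, 4.25 and 6.03 CPM in MII, 8.67, 7.86 and 7.81 in L1C and 11.5, 12.6 and 11.7 in L2C, rising by 0.83 ± 0.19 and 0.80 ± 0.18 (edgeR adjusted p = 0.0023 and 0.0011). *Peg3*, a zinc finger protein gene, was at 8.69 to 10.6, 4.43 to 7.51 and 4.56 to 5.83 CPM. Its first step of -0.58 ± 0.22 (adjusted p = 0.036) was not called without MII input replicate 1, 2 or 3 or L1C input replicate 1 or 2 (adjusted p = 0.052 to 0.14). Its change from MII to L2C (-0.55 ± 0.22, adjusted p = 0.029) was not called with library size scaling, with DESeq2 or without MII input replicate 1 or L2C input replicate 1 or 2 (0.072 to 0.088). *Impact*, a brake on the kinase GCN2, was at 8.01, 5.33 and 5.36 CPM in MII, 20.1, 16.9 and 20.2 in L1C and 5.69, 6.4 and 6.27 in L2C. It thus peaked at L1C in every library (1.70 ± 0.19 up and 1.40 ± 0.19 down, edgeR adjusted p = 6e-06 and 7.6e-06). *Zdbf2*, a zinc finger gene, stayed at 0.528 to 1.47 CPM with no call between stages in the fit of the inputs. In the fit over all 18 libraries it was called lower than in MII at L1C (-0.90, adjusted p = 0.026) and at L2C (-0.79, adjusted p = 0.026). *Sgce*, which encodes epsilon-sarcoglycan, held 1 to 37 counts in the inputs, and its call from MII to L2C (1.58 ± 0.55, adjusted p = 0.015) did not pass without MII input replicate 2 (1.06, 0.057).

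The SLIM-seq IP was read as the log2 ratio of IP to input at each stage, in which m6A-bearing RNA is enriched relative to the average RNA of the library. At MII, 6 of 25 genes tested were enriched and 5 depleted, where 17.7% and 21.0% of the 21950 genes tested were (38.6% in all). At L1C, 2 were enriched and 3 depleted of 25, against 15.8% and 18.2% (33.9% in all). At L2C, 8 were enriched and 6 depleted of 27, against 22.0% and 22.0% (44.0% in all). With library size scaling in place of TMM the median of all genes moved from 0.00, 0.07 and 0.09 to 0.20, 0.37 and 0.34, and the counts of the members to 8 and 5, 7 and 3, and 8 and 5. Over all genes the number called at L1C then held 6372 enriched of 8985 in place of 3463 of 7451, so small ratios depend on the scaling. The number enriched at MII was 3 without MII input replicate 3, and that at L2C was 5 without L2C IP replicate 3.

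**Figure D2:**
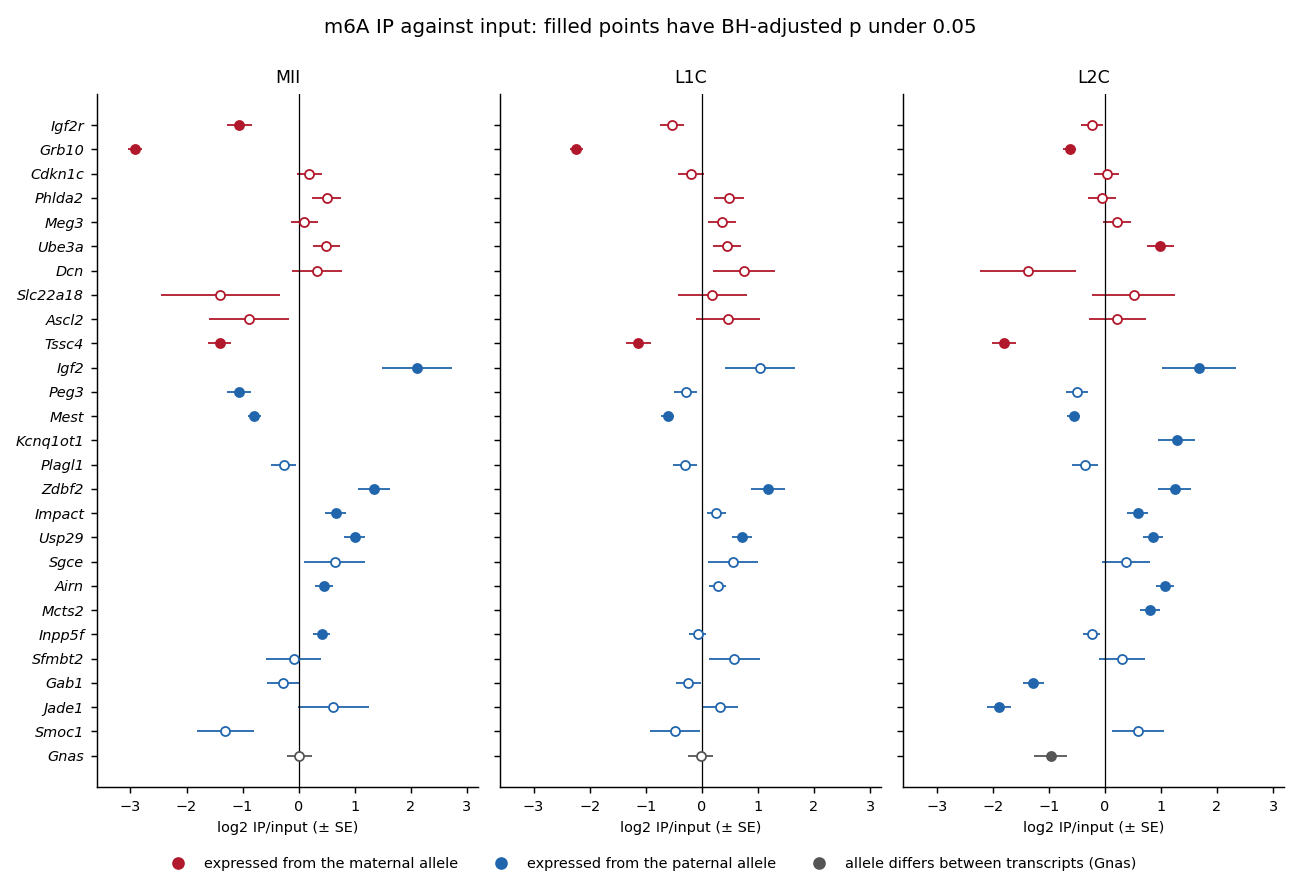
Log2 ratio of IP to input (x axis, ± SE) for the 27 genes tested, at MII, L1C and L2C. Filled points have a BH-adjusted p under 0.05 and colour gives the expressed allele. *Zdbf2* and *Usp29* lie right of 0 at each stage, *Grb10*, *Tssc4* and *Mest* left of 0, and *Jade1* and *Gab1* move left at L2C.

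*Zdbf2* and *Usp29* were the genes enriched at all 3 stages. The IP libraries held *Zdbf2* at 3.71, 3.27 and 2.4 CPM in MII against 1.21, 1.02 and 1.47 in the inputs, at 1.38, 1.91 and 1.2 in L1C against 0.823, 0.528 and 0.606, and at 1.75, 1.55 and 1.75 in L2C against 0.785, 0.812 and 0.564. IP and input did not overlap at any stage, and log2 IP/input was 1.34 ± 0.29, 1.18 ± 0.31 and 1.24 ± 0.30 (edgeR adjusted p = 0.0012, 0.0063 and 0.0023). For *Usp29* it was 1.00 ± 0.19, 0.72 ± 0.18 and 0.86 ± 0.18 (edgeR adjusted p = 0.00032, 0.0041 and 0.00062). Both genes were enriched under library size scaling too.

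Of the genes first counted at L2C, *Mcts2* was at 34.5, 35.1 and 33 CPM in the IPs against 20.4, 16 and 22.1 in the inputs, and *Kcnq1ot1* at 5.67, 4.58 and 7.96 against 2.39, 1.94 and 3.14. Both were enriched without overlap of the libraries, by 0.81 ± 0.18 and 1.28 ± 0.33 on the log2 scale (edgeR adjusted p = 0.0036 and 0.0088). *Kcnq1ot1* reached 0.055 without L2C IP replicate 3. Their hosts were depleted at this stage, *H13* by -0.72 ± 0.14 and *Kcnq1* by -0.49 ± 0.19 (edgeR adjusted p = 0.00047 and 0.038). *Airn* was enriched at L2C, with 15.7, 14.6 and 14.2 CPM against 6.7, 6.95 and 7.5 (1.07 ± 0.16, edgeR adjusted p = 2.3e-05), while *Igf2r* was not called at L2C (-0.23 ± 0.20, adjusted p = 0.36) and was depleted at MII (-1.06 ± 0.22, edgeR adjusted p = 0.00066). *Ube3a* was enriched at L2C (0.99 ± 0.24, edgeR adjusted p = 0.0026), as was the overlapping *Snhg14* (1.57 ± 0.21, edgeR adjusted p = 9.7e-06).

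Enrichment of 4 further genes was small or rested on few reads. *Impact* was enriched at MII (0.66 ± 0.19, adjusted p = 0.0078) and L2C (0.58 ± 0.18, adjusted p = 0.013), which reached 0.056 without MII IP replicate 2 and 0.054 and 0.053 without L2C input replicate 1 and L2C IP replicate 3. *Airn* at MII (0.46 ± 0.16, adjusted p = 0.03) missed 0.05 without MII input replicate 2 or 3 or MII IP replicate 2 or 3 (0.06 to 0.12). *Inpp5f* at MII (0.41 ± 0.15, adjusted p = 0.037) missed it without any 1 of the MII libraries except IP replicate 2 (0.054 to 0.12). *Igf2*, the fetal growth factor, had 4, 8 and 1 input counts and 27, 23 and 10 IP counts at MII, and 5, 1 and 6 against 28, 5 and 10 at L2C. Its ratios were 2.11 ± 0.63 and 1.68 ± 0.66 (adjusted p = 0.012 and 0.045). The MII ratio missed 0.05 without MII input replicate 3 or MII IP replicate 1 (0.059 for both) and the L2C ratio without any 1 of its 6 libraries (0.053 to 0.19).

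Depletion at every stage was seen for *Grb10*, *Tssc4* and *Mest*. The IPs held *Grb10* at 12.5, 11.9 and 10.7 CPM in MII against 92.8, 83.5 and 90.1 in the inputs, at 12.4, 10.8 and 11.6 in L1C, and at 20.5, 19.4 and 21 in L2C against 31, 31.7 and 31.7. Its log2 ratio went from -2.92 ± 0.12 over -2.24 ± 0.12 to -0.63 ± 0.11 (edgeR adjusted p = 6.5e-12, 2.3e-10 and 0.00021). *Tssc4* had ratios of -1.41 ± 0.21, -1.13 ± 0.22 and -1.80 ± 0.21, and *Mest* of -0.79 ± 0.12, -0.61 ± 0.12 and -0.56 ± 0.12 (edgeR adjusted p at most 0.00094). *Jade1* and *Gab1* were depleted at L2C, the stage of their highest RNA level. *Jade1* was at 23.6, 21.3 and 21.3 CPM in the IPs against 74.6, 97.9 and 72.9 in the inputs (-1.89 ± 0.21, edgeR adjusted p = 8.8e-07) and *Gab1* at 8.28, 8.14 and 8.09 against 18, 22.6 and 18.8 (-1.28 ± 0.19, edgeR adjusted p = 2.3e-05). *Peg3* was depleted at MII (-1.06 ± 0.21, edgeR adjusted p = 0.00037). *Gnas* at L2C (-0.97 ± 0.30, adjusted p = 0.014) rested on 13 to 63 counts per library with overlapping groups, and reached 0.1 without L2C input replicate 1 and 0.096 without L2C IP replicate 3.

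Whether the ratio itself changed from MII to L2C was tested by the interaction of stage and IP, which called 20.3% of all genes (11.1% up and 9.21% down) and 4 of the 25 members tested. That of *Grb10* rose by 2.29 ± 0.16 on the log2 scale (edgeR adjusted p = 5.3e-08). The ratio of *Jade1* fell by 2.51 ± 0.68 (adjusted p = 0.013), but its MII libraries held 0 to 7 counts, and it reached 0.11 without MII IP replicate 3. Those of *Gab1* (-1.0 ± 0.35, adjusted p = 0.048) and *Inpp5f* (-0.65 ± 0.21, adjusted p = 0.036) were not kept. The call of *Gab1* was lost without any 1 of the 12 libraries (0.051 to 0.14), and that of *Inpp5f* without MII input or IP replicate 1 or 3 or L2C input or IP replicate 1 or 3 (0.059 to 0.091). Without MII IP replicate 3 none of the 3 falls was called.

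In the KD experiment the target *Ythdc1* was at 523, 541 and 519 CPM in the KD and 1080, 1100 and 994 in the Ctrl libraries, a fall by 1.00 ± 0.06 on the log2 scale (edgeR adjusted p = 1.3e-10). Values here are counts on exons. The merged table and KD replicate 3 end on chromosome 7, so 13 of the 32 genes were compared in 6 libraries, with CPM scaled to the total of the table alone, and the other 19 in 5 libraries, 2 of KD and 3 of Ctrl. All 8 markers of the 2-cell stage were lower in the KD, with a sum of 316 to 357 against 1090 to 1130 CPM, and the sum of the 8 oocyte transcripts was 780 to 849 against 1550 to 1700, with 5 of them lower, 2 higher and 1 not called. Somatic markers summed to 28.2 to 28.6 against 35.8 to 39.6 CPM, with 6 of the 12 at 0 in the KD and 4 in Ctrl, *Ptx3* among them in both. The part of this shift in the values below was not tested.

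Per exon length, the highest of these genes in Ctrl embryos was *Phlda2*, at 111 ± 14.6 RPKM (reads per exon length and library size, SD, n = 3), above *Mcts2* at 69.6 ± 4.53. *Cdkn1c* at 18.8 ± 0.924 and *Igf2r* at 16.5 ± 1.23 followed, with overlapping ranges of 17.8 to 19.7 and 15.7 to 18. Then came *Jade1* (7.33 to 7.63), *Tssc4* (5.83 to 6.86), *Mest* (4.44 to 4.98) and *Ube3a* (3.5 to 4.18), none of which overlapped the next. The genes from *Usp29*, at 2.39 ± 0.0967, down to *Peg3*, at 1.14 ± 0.0722, overlapped each with the next, except that *Usp29* lay above *Inpp5f*. *H19*, *Dcn*, *Slc22a18*, *Ascl2*, *Igf2* and *Nap1l5* had 0 counts in all 3 Ctrl libraries, which allows up to 3 counts in each, so *Igf2* and *H19*, the classic pair of growth factor and noncoding RNA, were not detectable at this depth.

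Of 9 members tested in 6 libraries 4 rose and 3 fell, where 33.5% and 37.4% of the 7433 genes tested did (70.9% in all). Of 13 tested in 5 libraries 4 rose and 4 fell, against 30.5% and 36.4% of 17074 (66.8% in all). The share of imprinted genes called was thus close to that of all genes. Without Ctrl replicate 2 the number that fell in 5 libraries was 2 in place of 4. *H19*, *Dcn*, *Slc22a18*, *Ascl2*, *Igf2*, *Peg10*, *Dlk1*, *Sgce*, *Nap1l5* and *Gnas* were too low to test, at no more than 24 counts in a library. Among these, *Dlk1* had 0 and 1 counts in the KD against 6, 13 and 2 in Ctrl, *Peg10* had 10, 7 and 24 against 4, 6 and 1, and *Ascl2* had 8 and 2 against 0 in each.

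**Figure D3:**
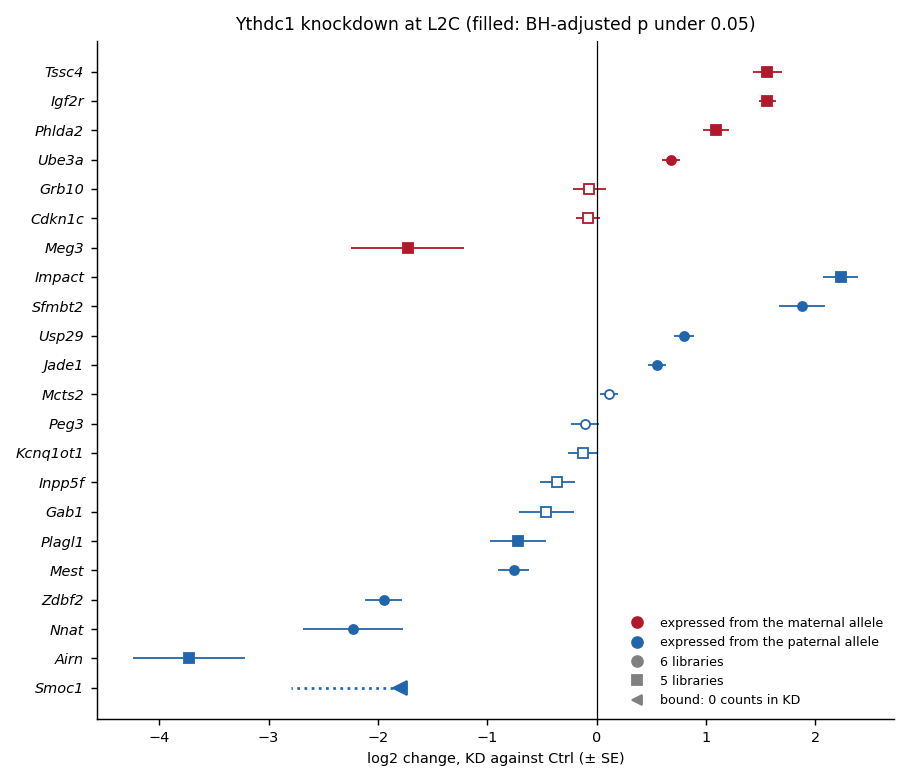
Log2 change in the KD against Ctrl (x axis, ± SE) for the 22 genes tested, circles from 6 and squares from 5 libraries. Filled symbols have a BH-adjusted p under 0.05, and the triangle is the bound for *Smoc1*, which had 0 counts in the KD. *Airn* lies farthest left and *Impact* farthest right, with *Igf2r* and *Tssc4* highest among the maternally expressed genes.

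The genes of the *Igf2r* domain moved in opposite directions. *Airn* had 2 and 3 exon counts in the KD against 47, 48 and 31 in Ctrl, or 0.185 and 0.321 against 3.21, 3.67 and 3.44 CPM, a fall by 3.73 ± 0.51 on the log2 scale (edgeR adjusted p = 1e-05). *Igf2r* was at 432 and 460 CPM in the KD against 147, 145 and 161 in Ctrl, a rise of 1.56 ± 0.08 (edgeR adjusted p = 6.9e-10). Neither pair of groups overlapped. Both calls were made in every fit with 1 of the 5 libraries left out. The counting did not use the strand, and by the settings in the file headers reads on exons of both genes are counted for neither.

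*Impact* showed the largest rise, with 34.2 and 29.9 CPM against 6.36, 5.9 and 8.64 (2.23 ± 0.16, edgeR adjusted p = 1.9e-08). *Sfmbt2* rose from 6.21, 5.98 and 6.66 CPM in Ctrl to 24.6, 23.1 and 21.5 in the 3 KD libraries (1.88 ± 0.21, edgeR adjusted p = 2.8e-07). *Tssc4* had 30.5 and 35.3 CPM against 10.7, 10.7 and 12.2 (1.56 ± 0.13, edgeR adjusted p = 9.6e-08). In none of the 3 genes did KD and Ctrl overlap. *Phlda2* rose by 1.09 ± 0.12 (222 and 298 against 107 to 136 CPM), *Usp29* by 0.80 ± 0.09 (174 to 204 against 104 to 115 CPM), *Ube3a* by 0.68 ± 0.08 (314 to 346 against 182 to 222 CPM) and *Jade1* by 0.55 ± 0.08 (220 to 254 against 157 to 167 CPM), all with an edgeR adjusted p of at most 5.3e-06. *Snhg14*, antisense to *Ube3a*, rose by a similar 0.84 ± 0.12 (edgeR adjusted p = 3.9e-06).

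**Figure D4:**
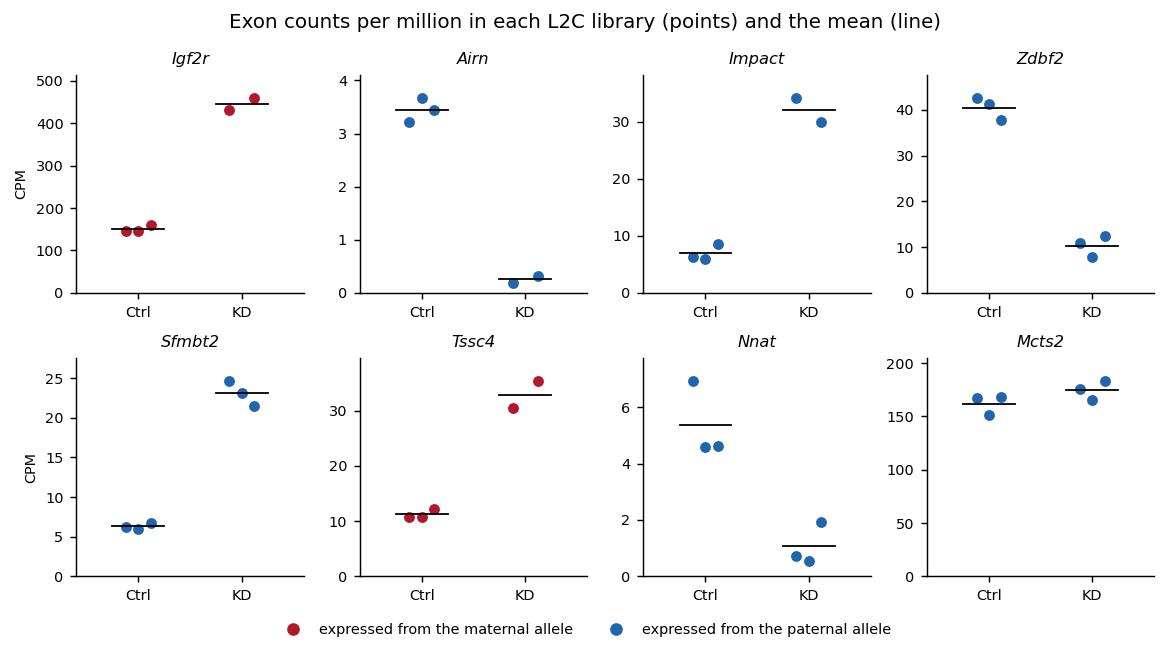
CPM on exons (y axis, linear from 0, a scale of its own for each gene) in each Ctrl and KD library, with lines at the mean, for 8 genes. *Igf2r*, *Airn*, *Impact* and *Tssc4* have 2 KD libraries and the others 3. Groups are separate for all but *Mcts2*, whose KD libraries at 165 to 183 CPM overlap the Ctrl range of 151 to 168.

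*Zdbf2* had 45, 28 and 64 counts in the KD against 240, 207 and 130 in Ctrl, falling to 10.8, 7.79 and 12.4 CPM from 42.6, 41.2 and 37.7 (-1.95 ± 0.17, edgeR adjusted p = 1.5e-08). *Nnat*, a small membrane protein of the endoplasmic reticulum, had 3, 2 and 10 counts against 39, 23 and 16 (-2.23 ± 0.46, edgeR adjusted p = 0.00029), and *Blcap*, which contains it, fell by 1.35 ± 0.12 (edgeR adjusted p = 1.2e-08). *Mest* fell by 0.76 ± 0.14, from 45.1 to 49.5 CPM to 24 to 32 (edgeR adjusted p = 6.6e-05), as did its overlapping neighbour *Copg2*, by 0.81 ± 0.17 (edgeR adjusted p = 0.00038). *Meg3* had 6 and 5 counts against 20, 31 and 16 (-1.73 ± 0.52, edgeR adjusted p = 0.0078). *Smoc1* had 0 counts in both KD libraries and 11, 15 and 11 in Ctrl, so it was at least 3.47-fold lower when 3 counts are allowed in each KD library. It was too low to be tested without Ctrl replicate 2 or 3, while *Meg3* was called in every fit with 1 library left out (adjusted p = 0.0036 to 0.046). *Plagl1* changed by -0.72 ± 0.26 (adjusted p = 0.023), which did not pass without KD replicate 1 (0.071), KD replicate 2 (0.068), Ctrl replicate 1 (0.056) or Ctrl replicate 2 (0.11), nor with DESeq2 (0.1).

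The 7 genes without a call in the KD included the growth-restraining *Cdkn1c* (-0.08 ± 0.11, adjusted p = 0.57) and *Grb10* (-0.07 ± 0.15, adjusted p = 0.68). *Mcts2* (0.11 ± 0.08, adjusted p = 0.24) and *Kcnq1ot1* (-0.13 ± 0.13, adjusted p = 0.4), both counted first at L2C and enriched in the IP, had 165 to 183 against 151 to 168 and 19.2 and 20.9 against 20 to 24.2 CPM. Both lie inside the span of a host and the counting did not use the strand, so unspliced reads of the host can count for them. *Peg3* changed by -0.11 ± 0.13 (adjusted p = 0.44), *Gab1* by -0.46 ± 0.25 (adjusted p = 0.11) and *Inpp5f* by -0.36 ± 0.16 (adjusted p = 0.055). Without KD replicate 1, *Inpp5f* and *Gab1* changed by -0.5 and -0.75. Both were called without Ctrl replicate 3 (edgeR adjusted p = 0.021 and 0.034) and with the replicate block (0.018 and 0.04). *Inpp5f* was also called with library size scaling (0.023). Of the genes enriched in the L2C IP, *Zdbf2* and *Airn* fell in the KD, *Impact*, *Usp29* and *Ube3a* rose, *Mcts2* and *Kcnq1ot1* were not called and *Igf2* was not tested.

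Maternally and paternally expressed genes were compared by counts and medians, with no test, since the genes are not replicates. From MII to L1C no maternally expressed gene rose and 7 of 9 fell (median log2 change -0.66), while 5 of 13 paternally expressed genes rose and 3 fell (median 0.42). Without genes whose spans overlap others these medians were -0.63 for 5 and 0.09 for 7 genes, and in the fit over all 18 libraries -0.73 and 0.20. Of all genes 31.9% rose and 24.3% fell, with a median of 0.16. From L1C to L2C 6 of 9 maternally expressed genes rose and 1 fell (median 1.04). Of 15 paternally expressed genes 5 rose, *Mcts2* and *Kcnq1ot1* among them, and 4 fell (median 0.36, or 0.03 without these). Of all genes 44.1% rose and 38.8% fell with a median of 0.17. Between MII and L2C the medians were 0.16 and 0.29 against 0.40, and 1.40 and 0.62 without *Grb10*, *Ube3a* and *Inpp5f*. Without genes whose spans overlap others these medians were -1.17 and -0.53. In the fit over all 18 libraries, overlapping genes included, they were -0.18 and -0.16 against 0.18 for all genes. The order of the classes in the second step rested on genes whose spans overlap others: without them the medians were -0.41 for 5 maternally and -0.18 for 7 paternally expressed genes. In the fit over all 18 libraries, overlapping genes included, the medians of this step were 0.57 for 10 maternally and -0.04 for 16 paternally expressed genes. The median of all genes was then -0.05.

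In the IP at MII no maternally expressed gene was enriched and 3 of 10 were depleted (median log2 IP/input -0.40), while 6 of 14 paternally expressed genes were enriched and 2 depleted (median 0.43), where 17.7% of all genes were enriched and 21.0% depleted with a median of 0.00. With library size scaling or no filter on low counts the maternally expressed *Phlda2* (adjusted p = 0.033 in both) and *Ube3a* (0.024 and 0.045) were enriched at MII as well, and without MII input replicate 3 the members enriched were 3 in all. The medians without overlapping genes were -0.40 and 0.41. At L1C both classes had a median of 0.27 (0.41 and -0.07 without overlapping genes). At L2C 1 of 10 maternally expressed genes was enriched and 2 depleted (median -0.01), against 7 of 16 and 3 (median 0.48, or 0.34 without *Mcts2* and *Kcnq1ot1*). Of all genes 22.0% were enriched and 22.0% depleted. Without overlapping genes the medians at L2C were 0.08 and 0.37. Without L2C IP replicate 3 the members enriched at L2C were 5 in all. In the KD, 4 of 7 maternally expressed genes rose and 1 fell (median 0.68), and 4 of 15 paternally expressed genes rose and 6 fell (median -0.36), where 33.5% of all genes rose and 37.4% fell in 6 libraries (median -0.06) and 30.5% and 36.4% in 5 (median -0.09). Without genes that overlap others only 3 and 6 genes remained, with medians of -0.07 and -0.54, and without *Grb10*, *Ube3a* and *Inpp5f* the medians were 1.09 and -0.30.

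A list of 32 further imprinted genes was measured in the same fits. From L1C to L2C 8 of the 24 tested rose and 13 fell (median -1.0), against 44.1% and 38.8% of all genes. *Zrsr1*, a paternally expressed retrogene for a splicing factor inside an intron of *Commd1*, had 0 to 13 counts up to L1C and 1764, 1244 and 2385 at L2C. As for *Mcts2*, kallisto could have placed early reads on the host, and the share of the host was not worked out. *Xist*, the RNA that coats the inactive X chromosome, rose by 3.16 ± 0.40 (edgeR adjusted p = 4.4e-06). *Gpr1*, a neighbour of *Zdbf2*, rose by 1.38 ± 0.15 from MII to L1C and fell by 4.75 ± 0.18 afterwards (edgeR adjusted p = 4.4e-06 and 1.4e-11). *Zim1*, next to *Peg3*, also rose from MII to L1C, by 2.05 ± 0.23 (edgeR adjusted p = 5.7e-06). In the KD 5 of 22 rose and 9 fell, where 33.5% and 37.4% of all genes did in 6 libraries and 30.5% and 36.4% in 5. *Rian*, the noncoding RNA downstream of *Meg3*, had 1 and 2 counts against 92, 87 and 39 (-5.19 ± 0.52, edgeR adjusted p = 5.2e-07). *Slc38a4*, an amino acid transporter gene under inherited H3K27me3, had 26 and 20 counts in the KD and 0 in each Ctrl library, at least 8.89-fold higher when 3 counts are allowed in each. *Ddc*, which encodes an amino acid decarboxylase and neighbours *Grb10*, rose by 3.47 ± 0.44 (edgeR adjusted p = 5.1e-06).

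Of 16 genes that set, hold or erase imprints, 4 rose and 6 fell from MII to L1C and 5 rose and 9 fell from L1C to L2C, so that 62.5% and 87.5% were called, against 56.2% and 82.9% of all genes. *Zfp57* rose by 1.38 ± 0.12 and then fell by 3.63 ± 0.13 on the log2 scale (edgeR adjusted p = 3.7e-07 and 8e-12). *Trim28* went the other way, down by 2.15 ± 0.16 and up by 3.85 ± 0.17 (edgeR adjusted p = 9.8e-08 and 4.8e-11). *Uhrf1*, which brings the maintenance methylase DNMT1 to replicated DNA, fell by 3.58 ± 0.14 from L1C to L2C (edgeR adjusted p = 2.1e-11). In the IP *Kdm1b*, the H3K4 demethylase needed for imprints of the oocyte, was depleted at all stages (-2.51 ± 0.11, -2.26 ± 0.11 and -1.96 ± 0.11, edgeR adjusted p at most 5.9e-10) and *Suz12*, a Polycomb subunit, was enriched at all stages, by 1.49 ± 0.22, 1.82 ± 0.22 and 1.82 ± 0.22 (edgeR adjusted p = 2e-05, 3.2e-06 and 2.1e-06). In the KD 7 of the 16 rose and 2 fell, none by more than 1 on the log2 scale, and 56.2% were called against 66.8% of all genes in 5 libraries and 70.9% in 6.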

How the data were processed

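SLIM-seq read counts of IP and input libraries were deposited as estimated counts and TPM made by the authors with kallisto on GRCm38 (version and strand setting not given in the sources used here), with each gene's whole span as 1 target. Introns therefore count, and reads can be shared between overlapping genes. For the KD experiment the authors deposited counts on exons, without strand, from Trimmomatic, HISAT2 and featureCounts on GRCm38. The TPM values were not tested. The merged KD table holds 25739 of 55471 genes (46.4%) and ends on chromosome 7, as does KD replicate 3.

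Estimated counts were rounded, filtered with filterByExpr, scaled by TMM and tested with edgeR 4.0.16 (R 4.3.3, quasi-likelihood test, BH adjustment over all genes tested, threshold 0.05). All inputs, all SLIM-seq libraries, or KD and Ctrl entered each fit. CPM are scaled to the TMM-adjusted library total, for SLIM-seq with factors over all 18 libraries, so that changes between stages, fitted on the 9 inputs, differ from printed levels by the offsets given with the results. The floor of 3 counts and the host shares cover counting error only. DESeq2 1.42.0 was an alternative. The code was tested on simulated data. The range of totals per library is given with the results, and p-values measure the spread between these libraries, which may be technical.

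The members and lists were chosen with earlier results of these data known. All 32 members are named, the gene that was knocked down, genes that overlap a member, and from each further list genes among the 2 with the smallest P in each direction past a log2 change of 1. *Mcts1* was named for its sequence. RefSeq promoters (GRCm38.p6) were matched by symbol.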

Additional observations from a re-analysis of the deposited data

Results flagged for a closer look

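The log2 ratio of IP to input differed between MII and L2C, by a test of that difference, in 4 genes. It rose by 2.29 for *Grb10*. Its change was -0.65 for *Inpp5f*, -1.0 for *Gab1* and -2.51 for *Jade1*, whose MII libraries held only 0 to 7 counts. The difference of *Grb10* was called whichever library was left out, while those of *Inpp5f*, *Gab1* and *Jade1* each lost the call without at least 1 library. The causes were not tested.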

How the results depend on the processing

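Of 2343 values of single genes under alternative settings, 2180 stayed on the same side of the threshold, 109 lost a call, 54 gained one and 0 reversed. In the fit over all 18 SLIM-seq libraries, chosen after seeing the data, 11 genes in place of 6 fell from L1C to L2C. Library size scaling raised the genes enriched at L1C from 2 to 7, and it or no filter on low counts raised those with a rising IP ratio from 1 to 2. The rule of the study, an unadjusted P under 0.05 and a log2 change above 1, left 1 of 4 genes that rose in 6 KD libraries.

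IP and input RNA came from the same batches by the study's methods, but nothing ties a batch to a replicate number, and same-numbered libraries had correlations of deviations from -0.164 to 0.157, so the numbers were not used as pairs. With the replicate block 187 of 197 values kept their side, and genes with a falling IP ratio went from 3 to 1. In the IP, calls were lost with the block for *Airn* (edgeR adjusted p = 0.073) and *Inpp5f* (0.08) at MII and *Igf2* (0.069) at L2C. Between stages it lost the calls of *Ascl2* from L1C to L2C (0.093) and *Sfmbt2* from MII to L2C (0.08). *Smoc1* was called lower from L1C to L2C (0.045), as were *Inpp5f* and *Gab1* in the KD (0.018 and 0.04).

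Leaving out 1 library in turn gave these ranges of genes called higher and lower: 5 to 5 and 7 to 11 from MII to L1C, 9 to 12 and 6 to 8 from L1C to L2C, 9 to 11 and 7 to 8 from MII to L2C, 3 to 5 and 5 to 6 in the IP at MII, 2 to 2 and 3 to 4 at L1C, 5 to 7 and 5 to 6 at L2C, 1 to 3 and 0 to 3 for a changed IP ratio, 4 to 5 and 3 to 3 in 6 KD libraries, and 4 to 4 and 2 to 5 in 5. Fewer samples enter these fits, and the lone KD library left in some is assumed to vary like the others.

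The median log2 change of paternally minus that of maternally expressed genes moved without *Grb10*, *Ube3a* and *Inpp5f* from 1.08 to 1.29 (MII to L1C), 0.14 to -0.78 (MII to L2C), 0.49 to 0.60 (IP at L2C), -0.40 to -0.07 (changed IP ratio) and -1.04 to -1.39 (KD). Without genes whose span overlaps another it was 0.72 (MII to L1C), 0.23 in place of -0.68 (L1C to L2C), 0.64 (MII to L2C), -0.48 (IP at L1C), 0.29 (IP at L2C), -0.71 (changed IP ratio) and -0.46 (KD). Fewer genes enter these medians, and the cause was not tested. Genes under about 20 counts per library rest on few reads.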
